A study of Bos taurus with 16 samples.

Results

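The RNA of circulating leukocytes (white blood cells, WBC) was compared between 4 cows with subclinical endometritis (SCE) and 4 healthy cows. SCE is an inflammation of the lining of the uterus after calving that shows no outward sign, and the comparison asks how it is accompanied by differences in the blood. The 8 arrays were chosen by their sample titles, which state the tissue and the status of the cow, out of 16 arrays in the series. The 4 SCE cows carry the numbers 718, 833, 836 and 846 and the 4 healthy cows the numbers 841, 850, 877 and 883. All were multiparous Holstein-Friesian cows without clinical disease, sampled at 45 to 55 days post-partum, and the groups are labelled by uterine status, with no treatment given. The other 8 arrays hold endometrial biopsies of the same cows. Blood was drawn into PAXgene tubes, in which all blood cells are lysed together, so that RNA of platelets and of young red cells was measured with that of the leukocytes. By the study's methods both groups held cows in the luteal and the follicular phase of the oestrous cycle, in unequal proportions. The labels do not tie a phase to a cow, so its part in the differences was not tested.

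Blood leukocytes are a mixture of neutrophils, monocytes, lymphocytes and rarer granulocytes, and each type carries its own receptors. Neutrophils and monocytes leave the circulation for inflamed tissue, a passage that uses adhesion molecules, chemokine receptors and remodelling of the actin skeleton. They recognise microbes and antibody-coated particles through Toll-like receptors, C-type lectins and Fc receptors, and these signal through kinases such as SYK and through NF-kappa-B. Cattle carry many gamma-delta T cells in blood, a large part of which display WC1 co-receptors.

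Each array held 52689 spots for bovine transcripts, and levels are given as log2 of the quantile-normalized spot signal, averaged over the probes of a gene. A difference of 1 on this scale is a doubling of signal. Values of single cows are listed in the order 841, 850, 877, 883 for the healthy cows and 718, 833, 836, 846 for the SCE cows throughout. All 8 WBC arrays lay on 1 slide, whose 2 rows held 2 cows of each group. The median spot signal above background ranged from 83.0 to 132 in the healthy cows and from 90.5 to 202.5 in the SCE cows, and 66.3 to 75.8% of spots were well above background. The array of SCE cow 833 stood apart. It had the median of 202.5, and its root mean square deviation from the mean of its group was 0.445, against 0.193 to 0.325 on the other 7 arrays. Results that rest on this cow are therefore given with and without it. With 4 arrays a group, the spread between cows sets how precisely any difference is known.

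The labelled tissue was checked against markers. CD3E (T cells), CD79A (B cells), CSF3R (neutrophils) and CD14 (monocytes) were well above background on all 8 arrays, whereas the epithelial keratin KRT7 was so on 0 of 8. The epithelial surface protein EPCAM was well above background in 3 healthy and 2 SCE cows. KRT7 was, however, among only 2 of 16 epithelial genes that were above background on no array. Of the 16, 11 were well above background on all 8 arrays. A signal above background therefore did not tell blood from epithelium. The same CD3E probes gave 12.66 to 13.90 in WBC and 7.43 to 9.21 in endometrium, and CSF3R gave 13.55 to 14.59 against 6.10 to 7.06. The other markers named overlapped between the tissues. CD79A gave 12.38 to 13.92 in WBC and 12.025 to 12.64 in endometrium, and CD14 gave 9.09 to 9.81 against 8.17 to 9.62. Endometrium and WBC were hybridised on different slides, so that slide and tissue cannot be told apart. In such bulk samples, fewer cells of a type and less RNA per cell cannot be told apart either.

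Of 26430 gene names tested, 24 (0.0908%) passed the unadjusted test against a 1.2-fold threshold (limma TREAT, two-sided, p at or below 0.05), 17 of them (0.0643%) higher and 7 (0.0265%) lower in SCE. After Benjamini-Hochberg adjustment over all genes, 0 genes (0.0%) passed. In 153 genes (0.579%) all 4 SCE cows lay above all 4 healthy cows, and in 196 (0.742%) all lay below. For a gene with such a separation the exact two-sided permutation p is 0.0286, the smallest that 4 cows against 4 can give. Random labels would separate a gene at that same rate, and the shares found, 0.579% and 0.742%, were below it even together. Across all genes the median difference was -0.008 and 47.5% were higher in SCE. The genes described below come from 35 lists (12 of leukocyte subsets and other cell types, 9 metabolic and 14 of signalling), which hold 831 genes. Of these, 773 were measured and 686 were well above background on all 8 WBC arrays. 6 of the 773 passed the unadjusted test (C3AR1, CLEC6A, FCGR3A, PARVB, PIGR and SEPHS2) and 23 separated the groups. That share of separated members is close to the rate of random labels. A separation by itself is therefore no evidence of a difference, here or below. The study's own table of WBC genes, which was chosen on these samples, holds all 6 and 78 of the 773, so their direction is not independent evidence. The same holds for the genes outside the lists that are described in the next paragraphs. By quantitative PCR on blood of more cows from the same herd, the study also reports ART5 and PRKCI as higher in SCE. With 4 arrays a group, a difference that missed the threshold is not shown to be absent.

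A pair of neighbours on chromosome 15 was higher in SCE, and 1 of them had the smallest TREAT p of all genes. ENSBTAT00000039859, a transcript that the array carries without a gene symbol, stood at 8.04, 7.89, 8.49 and 8.02 in the healthy cows and at 9.14, 9.73, 8.99 and 8.85 in the SCE cows. Every SCE cow lay above every healthy cow, and the difference was 1.07 (SE 0.21; limma TREAT p = 0.00172, adjusted p = 1.0, exact permutation p = 0.0286). It was past the unadjusted threshold with each of the 8 cows left out in turn. LOC407148, listed on the array as ART5 and thus as a member of the family of ADP-ribosyltransferases, which transfer ADP-ribose from NAD to proteins, stood at 10.3, 10.06, 10.64 and 10.45 in the healthy and 10.85, 11.58, 11.22 and 10.58 in the SCE cows. Only SCE cow 846 lay within the healthy range, and the difference was 0.69 (SE 0.22; limma TREAT p = 0.0412, exact permutation p = 0.0571). The array assigns its 4 probes, all described as ART5, to different mRNA records. Those starting at chr15:50973542 and chr15:50976355 share a record and gave differences of 0.42 and 1.04. Those starting at chr15:50991600 and chr15:50992854 share another and gave 0.85 and 0.47. The level and the call average these records and cannot be assigned to either.

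The 60-base probes of the 2 transcripts are shown because signals of neighbouring, related genes can rest on shared sequence. They are written 5′ to 3′ in lower case and lie on the plus strand of HGSC Btau_3.1, per the file headers, at chr15:50991600-50991659 and chr15:51010889-51010948, 19230 bases apart.
ART5 probe: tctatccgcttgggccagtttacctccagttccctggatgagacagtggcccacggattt
ENSBTAT00000039859 probe: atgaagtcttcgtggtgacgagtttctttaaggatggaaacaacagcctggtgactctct
The longest run of bases these probes share is 5, and at best 21 of 60 aligned bases were identical. Within ART5, by contrast, a pair of probes 16440 bases apart (chr15:50976355-50976414 and chr15:50992854-50992913) had 55 of 60 bases in common, including a run of 26 (ctccattaaacagtgctgcagtatgg). Those 2 probes hold near-identical sequence, so that each may also bind transcript from the other position. Their differences were nonetheless unlike, 1.04 at chr15:50976355-50976414 and 0.47 at chr15:50992854-50992913. How much of either signal came from the other position was not tested. On the same ART5 probes the endometrium gave 6.03 to 6.38, against 10.06 to 11.58 in WBC.

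Among genes with a symbol, 6 were higher and 1 was lower in SCE with separated groups and an unadjusted call. MYOF, the membrane protein myoferlin, which takes part in membrane repair and fusion, stood at 8.01, 8.53, 8.42 and 8.21 in the healthy cows and 9.34, 8.92, 8.7 and 9.03 in the SCE cows. The groups were separated, with a difference of 0.7 (SE 0.17; limma TREAT p = 0.0136, exact permutation p = 0.0286), a 1.62-fold higher mean. MYOF kept its call with each cow left out, at 0.59 to 0.80. EVA1C, CYB5R2 and LOC533894 were likewise separated. EVA1C differed by 0.6 (SE 0.17), but its 2 probes gave 0.98 and 0.21. CYB5R2, a cytochrome b5 reductase, differed by 0.64 (SE 0.2), and its higher value came from SCE cows 718 and 833, at 7.39 and 7.22, against 6.55 and 6.56 in the others. Its 2 probes gave 0.881 and 0.405, and the probe with 0.405 was well above background on only 2 WBC arrays. LOC533894, which the array describes as predicted to be low density lipoprotein receptor-related protein 1, an endocytic receptor, differed by 0.63 (SE 0.17), with 0.61 and 0.65 on its 2 probes.

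**Figure D1:**
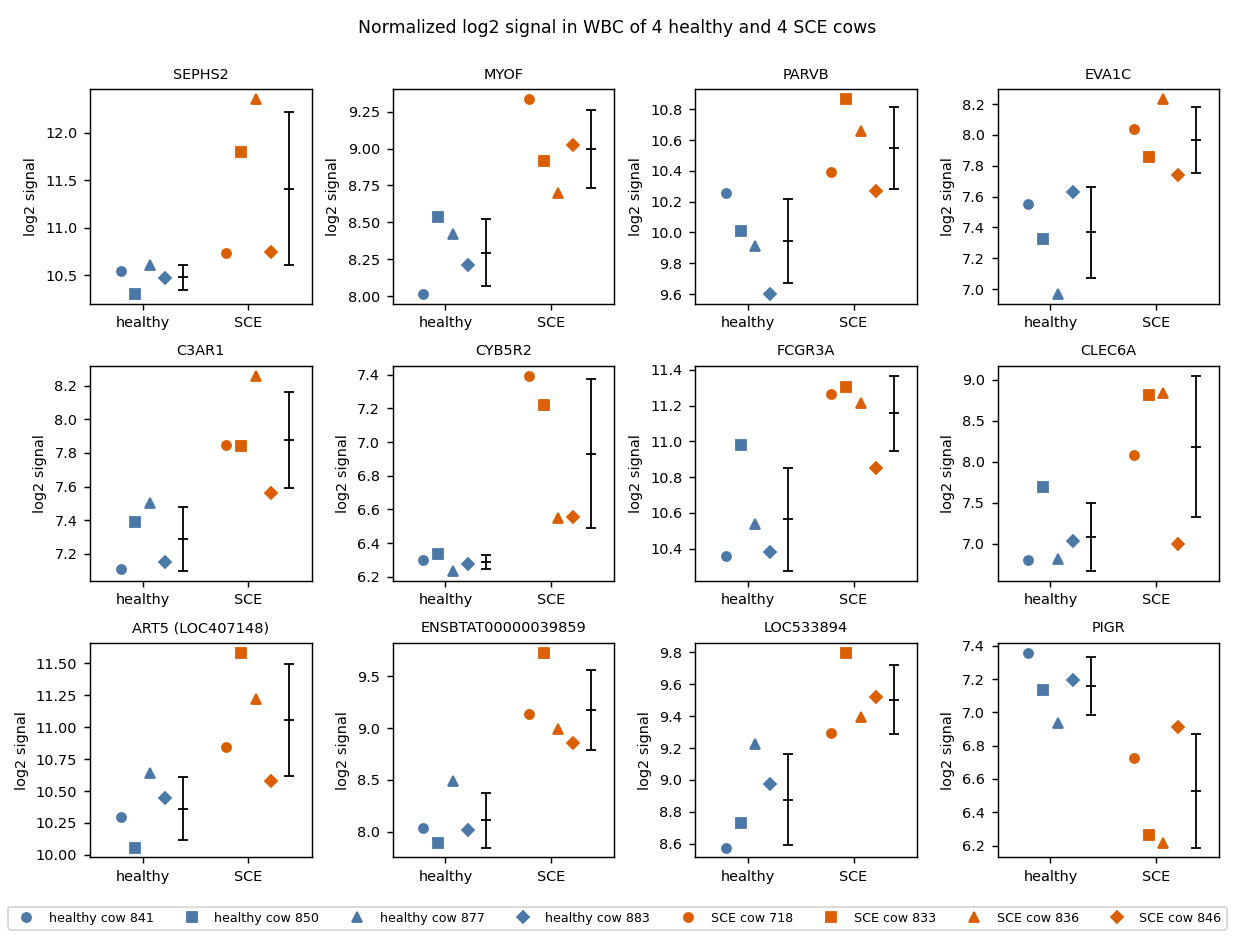
Log2 normalized signal (y axis) of 12 leading genes in each WBC array, with healthy and SCE cows side by side; points are cows and bars are the group mean with its SD (n = 4). In MYOF, C3AR1 and ENSBTAT00000039859 every SCE cow lies above every healthy cow, whereas in CLEC6A cow 846 lies at 7.0, within the healthy range.

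Monocyte genes were mostly higher in SCE. Of 23 measured genes, 20 were higher and 3 lower, with a median difference of 0.10 against -0.008 over all genes, and 1 gene passed the unadjusted test. That gene was C3AR1, the receptor for the complement fragment C3a, at 7.11, 7.39, 7.5 and 7.15 in the healthy and 7.85, 7.84, 8.26 and 7.56 in the SCE cows. The groups did not overlap, and the difference was 0.59 (SE 0.16; limma TREAT p = 0.0388, exact permutation p = 0.0286). CSF1R, the receptor that maintains monocytes and macrophages, stood at 10.82, 11.55, 11.41 and 11.73 against 11.74, 12.02, 11.72 and 12.21. SCE cow 836 lay just below the highest healthy cow, so the groups overlapped, and the difference of 0.54 (SE 0.2) did not pass. AIF1, CX3CR1 and VCAN were higher by 0.38, 0.27 and 0.27 without a call. CD14, the classical lipopolysaccharide co-receptor, differed by -0.04, and CD68, a lysosomal glycoprotein, by -0.39. The median of the list stayed between 0.1 and 0.17 and its number of higher members between 16 and 20 with each cow left out, the highest median being that without SCE cow 836.

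Receptors for antibody and for fungal and bacterial sugars held 2 of the 6 called members. In the list of C-type lectin and Fc receptor genes, 16 of 21 were higher, with a median of 0.15. CLEC6A, which encodes dectin-2, a lectin for mannan that signals through the Fc receptor gamma chain, stood at 6.81, 7.69, 6.82 and 7.03 in the healthy and 8.09, 8.82, 8.84 and 7.0 in the SCE cows. SCE cows 718, 833 and 836 lay above all healthy cows, and cow 846, at 7.0, lay inside the healthy range. The difference was 1.1 (SE 0.39; limma TREAT p = 0.0336, exact permutation p = 0.0857). It was 1.49 without cow 846 and 0.88 without cow 836. The probe of CLEC6A lies 92.4 kb from that of C3AR1 on chromosome 5 (HGSC Btau_3.1). FCGR3A, which encodes CD16a, a low-affinity receptor for IgG found on NK cells and some monocytes, stood at 10.36, 10.98, 10.54 and 10.38 against 11.26, 11.3, 11.22 and 10.85. Its groups overlapped by SCE cow 846 alone, the difference was 0.59 (SE 0.17; limma TREAT p = 0.0408, exact permutation p = 0.0571), and all 3 probes were higher by 0.55 to 0.67.

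The same cow lay lowest among the SCE cows in further receptors of this list. FCAR, the receptor for IgA, stood at 7.94, 7.82, 7.38 and 8.3 against 8.66, 8.97, 8.66 and 7.7, a difference of 0.64 (SE 0.28) that was 0.91 and past the unadjusted test without cow 846. Leaving out the cow that lies nearest the other group, or beyond it, widens a difference by itself. A call gained in this way, here or below, is therefore not taken as evidence. CLEC4D, a lectin encoded beside dectin-2 in other mammals, differed by 0.46, and by 0.63 with a call without cow 846. KLRK1, the activating NKG2D receptor of the cytotoxic list, showed the same arrangement, at 8.89, 9.53, 8.84 and 8.39 against 9.95, 9.91, 9.34 and 8.5. In these 3 genes the other 3 SCE cows lay above the healthy cows, except KLRK1 in cow 836. CD300LB, an activating receptor of myeloid cells, ran the other way, at 12.04, 11.55, 11.86 and 11.41 against 10.46, 9.92, 12.14 and 10.5. In it SCE cow 836 was above all healthy cows and the other 3 were below them, and the difference of -0.96 (SE 0.41) did not pass. The adaptors of these receptors, TYROBP, FCER1G and the kinase SYK, differed by -0.19, -0.09 and -0.06.

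Neutrophil genes were mostly lower. Of 26 measured, 18 were lower and 8 higher. The median was -0.12, and 0 genes were called. The 1 member that separated the groups was CATHL6, an antimicrobial cathelicidin, at 7.94, 7.56, 7.65 and 7.67 against 7.43, 7.52, 7.49 and 7.52, a difference of -0.22. ELANE, the elastase of azurophil granules, stood at 10.94, 10.99, 11.1 and 11.29 against 11.47, 10.2, 9.43 and 10.71. SCE cow 718 was above all healthy cows and the other 3 below them, so that the difference of -0.63 became -0.97 with a call without cow 718. Without SCE cow 836 the difference was -0.29. ALPL, the alkaline phosphatase of mature neutrophils, stood at 7.26, 6.82, 8.23 and 7.35 against 7.68, 8.32, 9.04 and 7.4, a difference of 0.69 that did not pass and in which the groups overlapped. CSF3R, the receptor for the growth factor of neutrophils, differed by -0.33. The median of the neutrophil list was -0.08, -0.04 and -0.05 without healthy cows 877 and 883 and SCE cow 836. Eosinophil, basophil and mast cell genes had a median of 0.08 with 9 of 14 higher. In that list FCER1A, the alpha chain of the IgE receptor, differed by 0.39, by 0.82 with a call without cow 846 and by 0.09 without cow 833.

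T cell genes gave no call. Of 24 common T cell genes 9 were higher, with a median of -0.045. The CD3 chains CD3E and CD3G differed by -0.17 and 0.12, CD247 (CD3 zeta) by -0.29, and IL7R, the interleukin-7 receptor of naive and memory T cells, by 0.28. Without cow 833, 14 of the 24 were higher and the median was 0.036. Of 7 measured gamma-delta T cell genes 5 were lower, with a median of -0.125 and 0 calls. WC1 stood at 8.84, 8.13, 8.64 and 8.36 in the healthy and 8.2, 7.96, 7.78 and 8.5 in the SCE cows. CD163L1, of the same scavenger receptor family, stood at 10.18, 9.22, 10.32 and 9.65 against 9.32, 9.27, 8.95 and 9.54. The delta chain locus TRD@ stood at 9.22, 7.75, 7.89 and 7.84 against 8.49, 7.21, 7.67 and 7.86. In all 3 genes healthy cow 841 was high and the groups overlapped, with differences of -0.38, -0.57 and -0.37. CD163L1 differed by -0.78 with a call without healthy cow 850, and by -0.41 without healthy cow 877. WC1 and its relatives are near-identical genes, so that probes may read more than 1 of them. The median of this list was -0.02 without healthy cow 841 or SCE cow 833, and -0.28 to -0.22 without healthy cow 850 or SCE cows 836 or 846.

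Cytotoxic and NK cell genes were higher in 19 of 26, with a median of 0.13 and 0 calls. KLRK1 and KLRD1, receptors of the killer lectin family, differed by 0.52 and 0.35, while ZNF683, a transcription factor of tissue-resident lymphocytes, differed by -0.63. KLRD1 and ZNF683 were well above background on only some arrays of each group. The level of the list was highest in SCE cow 718, at 0.44 above the mean of the 8 cows, and between -0.14 and -0.03 in the other SCE cows, within the healthy range of -0.26 to 0.19. Without cow 718 the direction turned, with 11 of 26 higher and a median of -0.007. The median was 0.07 without healthy cow 883 and 0.19 to 0.23 without healthy cow 850 or SCE cows 833 or 846. B cell genes were lower in 15 of 18, with a median of -0.11. BLK, a kinase of the B cell receptor pathway, stood at 13.67, 13.15, 13.62 and 13.23 against 12.97, 12.52, 13.15 and 13.58, and CD79A at 13.02, 13.48, 13.39 and 13.26 against 12.84, 12.38, 13.02 and 13.92. SCE cow 846 was the highest of all cows in CD79A and cow 833 the lowest. The number of higher B cell genes was 8 (median -0.03) without cow 718, 7 (median -0.03) without cow 833, 4 (median -0.21) without healthy cow 841, 3 (median -0.30) without cow 846 and 10 (median 0.00) without healthy cow 850. Plasma cell genes were higher in 9 of 12, with a median of 0.04, led by TXNDC5, a disulphide isomerase of the secretory pathway, at 0.39, and by JCHAIN, the joining chain of polymeric antibody, at 0.30. Without SCE cow 718, TXNDC5 differed by 0.61 with a call, and without SCE cow 836 by 0.18.

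Platelet genes, with PF4 left aside, were higher in 14 of 18, with a median of 0.17 (0.11 without healthy cow 877) and 0 calls. RGS18, a regulator of G protein signalling abundant in platelets, stood at 7.17, 6.61, 6.93 and 6.93 against 6.72, 8.89, 8.34 and 6.3, and GNG11, a G protein gamma subunit, at 12.56, 12.46, 12.02 and 12.28 against 12.49, 13.76, 13.29 and 11.8. In both genes SCE cows 833 and 836 were above all other cows and cow 846 was the lowest of all 8. THBS1, which encodes thrombospondin-1 of platelet alpha granules, separated the groups at 9.0, 9.03, 8.91 and 8.85 against 9.06, 9.23, 9.04 and 9.32, a difference of 0.22. On its brightest probe alone, however, THBS1 differed by -0.15. GP5, a subunit of the receptor for von Willebrand factor, separated the groups by 0.49, at 6.44, 6.51, 5.77 and 6.1 against 6.62, 6.69, 6.55 and 6.91, and was well above background in 1 healthy and 3 SCE cows. Erythroid genes were lower in 13 of 20, with a median of -0.08. The haemoglobin genes HBB and HBA differed by -0.67 and -0.4, and healthy cow 883 was the highest of all 8 in both, at 15.24 and 18.40. The part of platelet and red cell RNA in the other differences was not tested.

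Genes of epithelial and stromal cells, which blood should hardly contain, served as a background. In these lists 10 of 16 and 6 of 15 were higher, with medians of 0.02 and -0.03, while 11 of the 16 and 10 of the 15 were well above background on all 8 arrays. PIGR, the receptor that carries polymeric IgA across epithelia, was the 1 called gene, at 7.36, 7.13, 6.94 and 7.2 in the healthy and 6.73, 6.27, 6.22 and 6.91 in the SCE cows. The groups were separated and the difference was -0.63 (SE 0.18; limma TREAT p = 0.0354, exact permutation p = 0.0286). 2 of its probes, which overlap at chr16:3730274-3730333 and chr16:3730287-3730345, gave -1.0 each. The other probe gave 0.12 and was well above background on 0 of the 8 arrays. COL6A1, a collagen VI chain, also separated the groups, by -0.31, without a call.

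**Figure D2:**
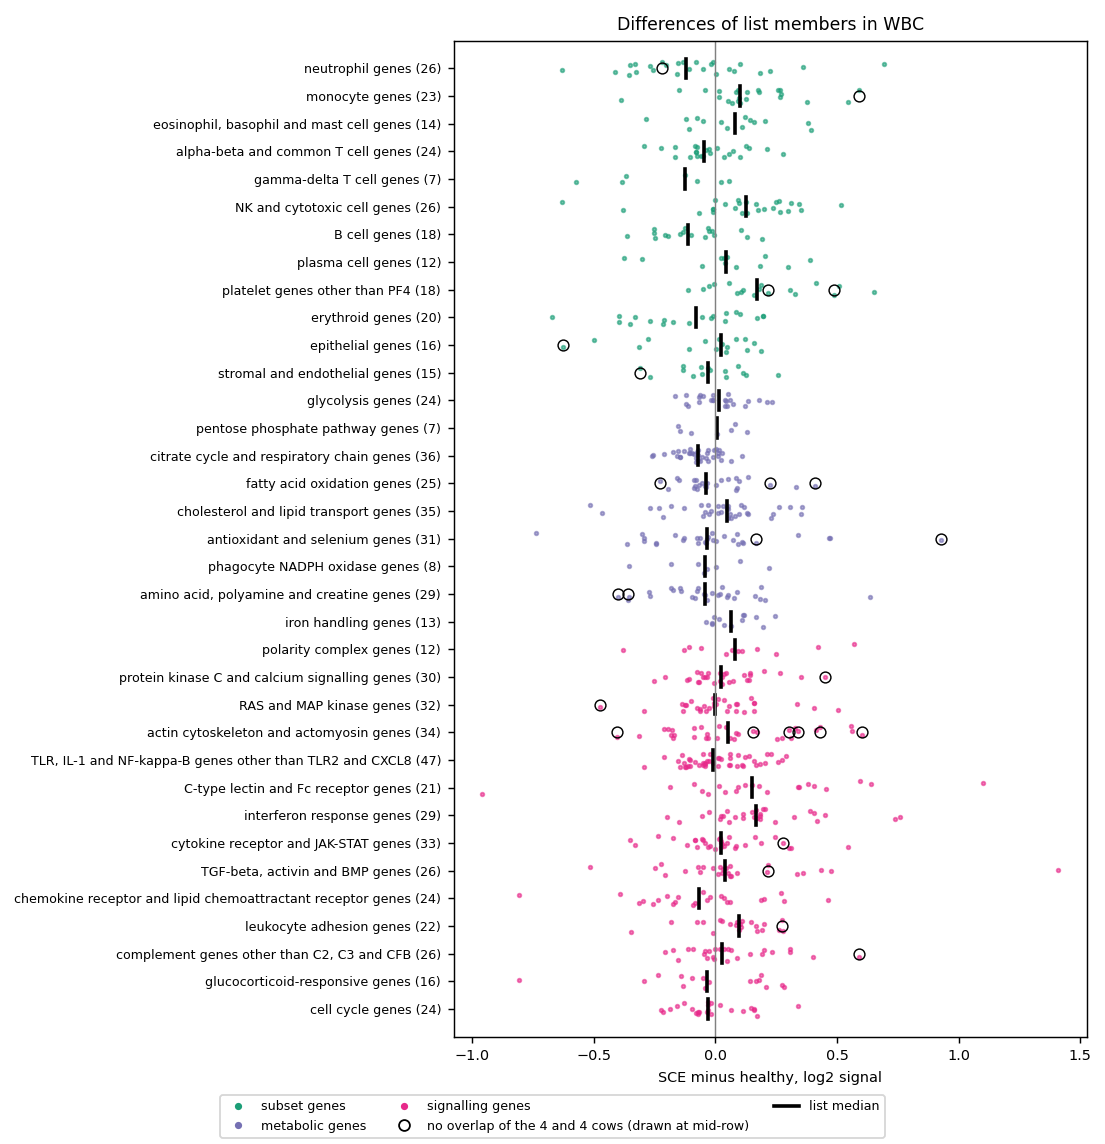
Log2 difference between SCE and healthy cows in WBC (x axis) of each measured member (points) of the 35 gene lists (y axis); bars mark list medians and open circles mark members whose groups do not overlap. Medians run from -0.125 in gamma-delta T cell genes to 0.17 in platelet genes, and ID1, at 1.41, lies farthest from 0.

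In metabolism, the largest difference belonged to SEPHS2, which makes the selenophosphate needed to build selenoproteins. SEPHS2 stood at 10.55, 10.31, 10.61 and 10.47 in the healthy and 10.74, 11.8, 12.35 and 10.75 in the SCE cows, so that cows 833 and 836 were high and cows 718 and 846 lay just above the healthy range. In endometrium cows 833 and 836 were also high, at 10.38 and 10.94. Cows 718 and 846, at 9.24 and 9.18 there, lay within the healthy range of 8.89 to 9.57. The difference in WBC was 0.93 (SE 0.34; limma TREAT p = 0.0422, exact permutation p = 0.0286), with 0.61 without cow 836. SEPHS2 was the 1 called gene among 31 antioxidant and selenium genes, of which 12 were higher, with a median of -0.03. SELENOP, the secreted selenium carrier, stood at 8.41, 8.65, 8.91 and 8.55 against 8.93, 9.35, 9.24 and 8.88. In it SCE cow 846 alone lay below the highest healthy cow, and the difference of 0.47 did not pass. NQO1, a quinone reductase, separated the groups by 0.17, but differed by -0.04 on its brightest probe and was well above background on 1 array of each group. GSTM3, a glutathione transferase, stood at 9.23, 8.2, 9.31 and 8.16 against 8.61, 7.88, 7.81 and 7.65. Healthy cows 841 and 877 were high in it, the groups overlapped, and the difference was -0.74 (SE 0.32). The peroxiredoxins PRDX1 and PRDX3 differed by -0.30 and -0.36.

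Energy metabolism showed small differences. Genes of the citrate cycle and the respiratory chain were lower in 28 of 36, with a median of -0.07. All 36 were well above background on every array, and the median lay between -0.12 and -0.05 with each cow left out, and was lowest without healthy cow 841 (-0.12) and SCE cow 833 (-0.11). COX6B1 and COX5B, subunits of cytochrome c oxidase, had the lowest differences, -0.26 each, and IDH3A, a subunit of isocitrate dehydrogenase, the highest, 0.11, which was -0.12 without cow 833. None of the 36 passed the test and none separated the groups. Glycolysis genes were split, 12 higher and 12 lower, with a median of 0.015 and differences from -0.17 in HK2, a hexokinase, to 0.23 in ALDOC, an aldolase. The 7 genes of the pentose phosphate pathway ranged from -0.15 to 0.13. The 8 genes of the phagocyte NADPH oxidase, which makes superoxide, ranged from -0.35 in HVCN1, its companion proton channel, to 0.22 in NCF4, a cytosolic subunit. In NCF4 the difference came with a low value in healthy cow 841, at 12.39.

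Fatty acid oxidation genes had a median of -0.04 with 11 of 25 higher, and 3 of them separated the groups. HADHA, the alpha subunit of the mitochondrial trifunctional protein, stood at 10.81, 10.84, 10.77 and 10.93 against 10.98, 11.01, 11.13 and 11.13, a difference of 0.22. HADH, the short-chain hydroxyacyl-CoA dehydrogenase, ran the other way, at 8.21, 8.11, 8.14 and 8.09 against 7.9, 8.08, 7.69 and 7.96, a difference of -0.23. BDH2, a hydroxybutyrate dehydrogenase, stood at 8.39, 8.11, 8.18 and 8.11 against 9.06, 8.39, 8.49 and 8.48, with SCE cow 718 far above the others and cow 833 at 8.39, level with healthy cow 841 to the digits given. Of 35 genes of cholesterol and lipid transport 22 were higher, with a median of 0.05 (17 higher and a median of -0.002 without cow 846). NR1H3, the liver X receptor that senses oxysterols, and ABCA3, a phospholipid transporter, differed by 0.35 and 0.35, and STARD10, a phospholipid transfer protein, by -0.52, all without a call.

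Among 29 genes of amino acid, polyamine and creatine metabolism 12 were higher, with a median of -0.04 and 0 calls. GATM, the first enzyme of creatine synthesis, stood at 7.01, 6.88, 6.75 and 7.11 against 7.36, 8.06, 7.9 and 6.96. SCE cow 846 alone lay within the healthy range, and the difference was 0.63 (SE 0.23), or 0.84 with a call without that cow. Without SCE cow 833 the difference was 0.47. SRM, which makes spermidine, and SRR, the serine racemase, separated the groups in the other direction, by -0.36 and -0.4. SRM stood at 8.14, 7.97, 8.1 and 8.31 against 7.94, 7.51, 7.79 and 7.85. Of 13 iron genes 9 were higher, with a median of 0.06, and SLC40A1, the iron exporter ferroportin, had the highest difference, 0.24, beside a low value of 10.50 in healthy cow 850.

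Among genes of cell shape and movement, 6 of the 23 members that separated the groups were in 1 list. In the list of actin cytoskeleton and actomyosin genes, 5 of 34 were above and 1 below the healthy cows in every SCE cow, against 0.579% and 0.742% of all genes. The study's table holds 11 of the 34. The level of the list is the mean of its members' deviations from the 8-cow mean. It was -0.06 to -0.03 in the healthy and 0.00 to 0.09 in the SCE cows. This was the 1 list of 35 whose levels did not overlap, with a gap from -0.027 to -0.003. Random labels separate a list with probability 0.0286, so 1 separated list among 35 is no evidence of a difference. Among the 23 members outside the study's table, 12 were higher, the median was 0.008, and 1 gene lay above and 0 below the healthy cows in every SCE cow. PARVB, beta-parvin, an adaptor that ties integrins to actin, stood at 10.26, 10.01, 9.92 and 9.6 in the healthy and 10.39, 10.87, 10.66 and 10.27 in the SCE cows. The lowest SCE cow, 846, lay just above the highest healthy cow, and the difference was 0.6 (SE 0.18; limma TREAT p = 0.0431, exact permutation p = 0.0286).

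DOCK3 and DOCK4, which are exchange factors for RAC, differed by 0.43 and 0.34, and TPM4, a tropomyosin that coats actin filaments, by 0.3. TPM4, which is not in the study's table, stood at 9.99, 9.99, 10.02 and 9.91 against 10.25, 10.29, 10.42 and 10.16. ARHGEF28, also separated, differed by 0.15 at a level that was not well above background. MYL12B, a regulatory light chain of myosin, was the member lower in every SCE cow, at 9.43, 9.29, 9.82 and 9.55 against 8.95, 9.18, 9.12 and 9.22, a difference of -0.41. CALD1, caldesmon, and ARHGAP32, a GTPase-activating protein, differed by 0.56 and 0.56 with overlapping groups. Of the 34 genes 14 were lower, with a list median of 0.05, which was 0.03 without healthy cow 850, 0.09 without healthy cow 877 or SCE cow 833, and 0.004 with the processed signal scaled to the 75th percentile.

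Adhesion genes were higher in 17 of 22, with a median of 0.10 and 0 calls. ITGB2, the common beta chain of the leukocyte integrins, separated the groups at 11.84, 11.94, 12.03 and 11.99 against 12.12, 12.16, 12.12 and 12.5, a difference of 0.27, and was brightest in cow 846. ITGA4 and ITGAL, alpha chains of the integrins VLA-4 and LFA-1, differed by 0.28 and 0.26, and JAML, a junctional adhesion molecule of leukocytes, by -0.35. Chemokine and lipid chemoattractant receptors were lower in 15 of 24, with a median of -0.07. CXCR4, which holds leukocytes in the bone marrow through CXCL12, stood at 10.1, 10.76, 11.07 and 10.97 against 10.59, 10.66, 8.94 and 9.48. SCE cows 836 and 846 lay below all healthy cows and cows 718 and 833 within their range. The difference of -0.81 did not pass. It was -1.05 with a call without cow 833 and -0.48 without cow 836. CCR2, the receptor by which monocytes leave the bone marrow, differed by 0.28.

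Polarity genes, which set the front and rear of a moving cell, were higher in 8 of 12, with a median of 0.08. PRKCI, the atypical kinase of the PAR complex, stood at 6.75, 7.09, 6.95 and 7.39 against 7.84, 7.61, 7.75 and 7.25, a difference of 0.57 (SE 0.17; limma TREAT p = 0.0553, exact permutation p = 0.0571). SCE cow 846 alone lay below the highest healthy cow, and without it the difference was 0.69 with a call. Without healthy cow 841 the difference was 0.47. The polarity proteins LLGL2 and PARD6B differed by 0.42 and -0.38. Genes of protein kinase C and calcium signalling had a median of 0.02 with 17 of 30 higher. CAMK2A, a calcium-dependent kinase, separated the groups by 0.45. It was well above background on no healthy array and 1 SCE array, so the size of this difference is not known. RAS and MAP kinase genes were even, 16 of 32 higher with a median of -0.001. DUSP14, a phosphatase of MAP kinases, separated the groups at 8.8, 8.35, 8.63 and 8.37 against 8.31, 8.18, 7.74 and 8.03, a difference of -0.47.

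Toll-like receptor, interleukin-1 and NF-kappa-B genes other than TLR2 and CXCL8 showed no shift as a list. Of 47 genes 23 were higher and 24 lower, the median was -0.01, 0 passed the test and 0 separated the groups. Differences ran from -0.29 in NFKBIA, the inhibitor of NF-kappa-B, to 0.29 in IRAK1, a kinase downstream of the receptors, which was -0.04 on its brightest probe. The co-receptor LY96 differed by 0.27 and the adaptor MYD88 by -0.15. Of 33 cytokine receptor and JAK-STAT genes 19 were higher, with a median of 0.02. OSMR, the oncostatin M receptor subunit, separated the groups by 0.28 at a level that was not above background. Complement genes other than C2, C3 and CFB had a median of 0.03 with 14 of 26 higher, C3AR1 being the 1 call. C1QA and C1QB, chains of the C1q recognition molecule, ranked the 8 cows in the same order, at 12.03, 13.75, 12.67 and 11.86 against 13.57, 11.57, 12.94 and 13.46 for C1QB, with differences of 0.31 and 0.31 and a wide spread in both groups.

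Interferon response genes were higher in 25 of 29, with a median of 0.165 and 0 calls. OAS1X, an oligoadenylate synthetase, stood at 8.31, 9.05, 9.94 and 8.48 against 10.64, 10.31, 8.47 and 9.38, and IFI44 at 7.59, 8.71, 7.2 and 7.87 against 8.49, 9.39, 8.5 and 7.95. The groups overlapped in both genes, with differences of 0.76 (SE 0.5) and 0.74 (SE 0.36). The level of the list divided the cows within each group. It was 0.29 and 0.39 in SCE cows 718 and 833 and -0.10 and -0.20 in cows 836 and 846, while healthy cow 850 stood at 0.36 and the other healthy cows between -0.38 and -0.06. Without cow 833, 18 of the 29 genes were higher, with a median of 0.08, and without cow 718, 19 were higher, with a median of 0.05. The median was 0.07 without healthy cow 841 or 883, 0.25 without healthy cow 850 and 0.28 without cow 846. MX2, an interferon-induced GTPase, differed by -0.2, with the highest value in healthy cow 850.

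Genes of the TGF-beta, activin and BMP pathway were higher in 17 of 26, with a median of 0.04 and 0 calls. ID1, a target of BMP signalling, had the highest difference of any list member, 1.41, yet it stood at 6.51, 6.68, 6.35 and 6.14 in the healthy and 6.55, 6.71, 6.8 and 11.26 in the SCE cows, so that the difference rested on cow 846. ID3, its relative, differed by -0.52, at 10.33, 10.16, 10.79 and 10.73 against 10.25, 10.03, 9.73 and 9.93. ACVR2B, an activin receptor, stood at 7.9, 7.8, 7.89 and 7.93 against 8.57, 7.91, 8.35 and 8.59, a difference of 0.48, which was 0.62 with a call without cow 833. Glucocorticoid-responsive genes had a median of -0.03 with 7 of 16 higher, and cell cycle genes a median of -0.03 with 8 of 24 higher (15 of 24 and 0.04 without cow 846).

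**Figure D3:**
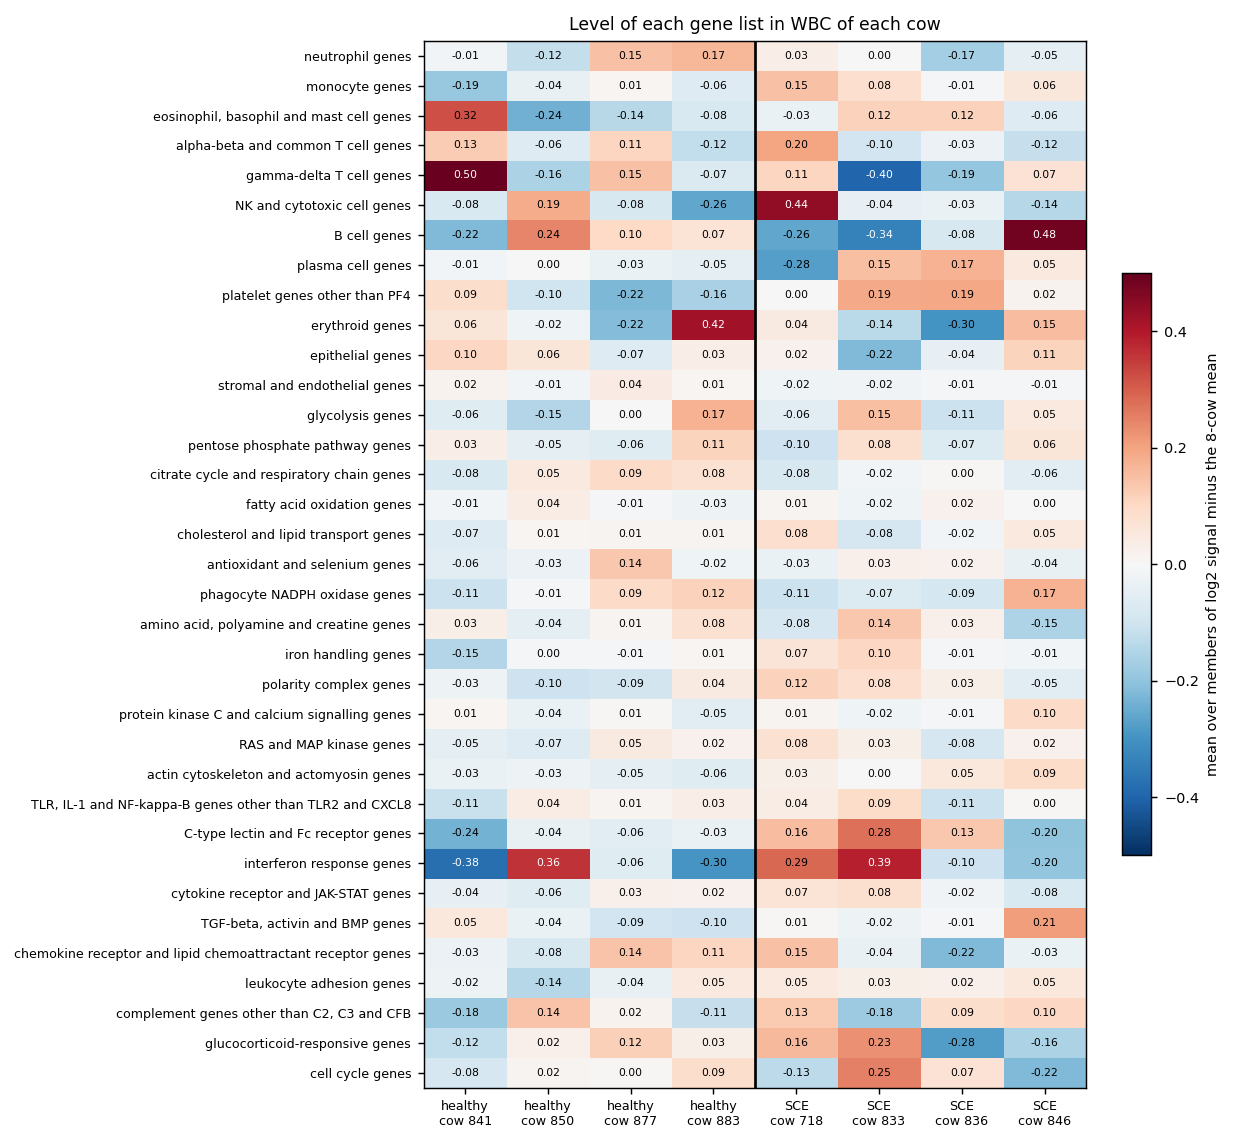
Mean deviation of each list's members from their mean over the 8 WBC arrays (colour, log2 units) for the 35 lists (rows) in each cow (columns), healthy cows to the left of SCE cows. Actin cytoskeleton and actomyosin genes are below 0 in all 4 healthy cows and at -0.003 or above in all SCE cows. With 35 lists, such a separation can arise from random labels. Interferon response genes are high in healthy cow 850 and in SCE cows 718 and 833.

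Which cows entered the comparison altered the number of calls. Without SCE cow 833, 274 genes passed the unadjusted test, 60 higher (0.227%) and 214 lower (0.81%), and 11 of the 24 were among them. Without SCE cow 846, 85 passed, 55 higher (0.208%) and 30 lower (0.114%), and 21 of the 24 were among them. In both cases 0 genes passed after adjustment. List members that passed without cow 833 were ACVR2B, C3AR1, CXCR4, MRAS (0.55) and NF1 (0.67), of RAS signalling, CHUK (-0.81), a kinase of NF-kappa-B signalling, PRDX3 (-0.76) and STIM2 (-0.51), a calcium sensor. CHUK stood at 8.77, 9.33, 9.6 and 9.46 in the healthy and 8.42, 11.21, 8.85 and 8.17 in the SCE cows, with cow 833 the highest of all 8, and its difference with all cows was -0.13. Without cow 846 the 16 members that passed were, besides those given above, CDHR5 (-0.67), GNG11 (0.85), HVCN1 (-0.54) and MYL6 (0.62), a light chain of myosin. Of the leading genes, MYOF and ENSBTAT00000039859 passed with every cow left out, LOC533894 lost its call without cows 841, 850 or 833, and C3AR1 lost it without cows 841, 883, 718 or 836. EVA1C lost it without cows 850, 877, 718 or 836, ART5 without cows 841, 850, 883, 833 or 836, PARVB without cows 850, 877, 883, 833 or 836, and PIGR without cows 841, 850, 883, 833 or 836. SEPHS2 and CYB5R2 each passed with 2 of the 8 cows left out, 718 or 846 for SEPHS2 and 836 or 846 for CYB5R2, and CLEC6A and FCGR3A passed only without cow 850 or cow 846.

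Other settings took calls from the leading genes too, with the direction kept. With all 16 arrays in 1 fit, 19 genes passed, of which 10 were among the 24, and SEPHS2, PARVB, EVA1C, C3AR1, PIGR, FCGR3A and LOC533894 were no longer called. With the row of the slide as a term, 29 passed, 21 of them among the 24, and SEPHS2, EVA1C and ART5 were no longer called, at differences of 0.93, 0.60 and 0.69. With normexp background correction CYB5R2, EVA1C, C3AR1 and PIGR lost their calls, and CYB5R2 and EVA1C did so with quantile normalization over WBC alone. MYOF lost its call on its brightest probe (0.61), as did FCGR3A (0.55), and PARVB lost it with the authors' normalized values (0.48). SEPHS2 and FCGR3A lost theirs with the processed signal scaled to the 75th percentile. ENSBTAT00000039859 was called in every one of these settings.

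**Figure D4:**
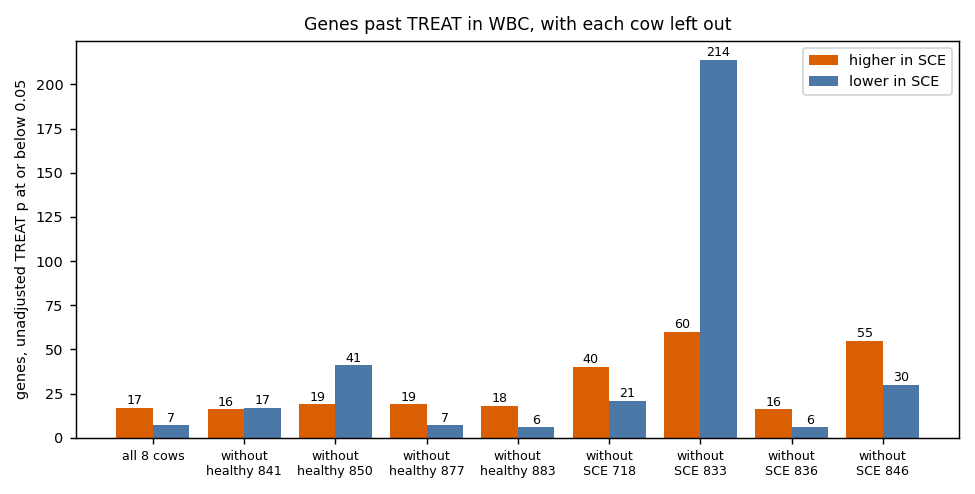
Number of genes (y axis) higher or lower in SCE at an unadjusted TREAT p at or below 0.05 with all 8 cows and with each cow left out (x axis). Leaving out cow 833 gives 60 higher and 214 lower genes, against 17 and 7 with all cows.

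The endometrium of the same cows allowed the difference of the SCE effect between the tissues to be tested. Of 26292 genes, 100 (0.38%) passed the unadjusted test of this interaction and 0 (0.0%) after adjustment, 45 with the higher effect in WBC and 55 with the higher effect in endometrium. CYB5R2 was the 1 gene of them that also passed in WBC, with 0.64 in WBC and -0.17 in endometrium. Its levels were low, at 6.236 to 6.335 in WBC of healthy cows and 5.88 to 6.53 in endometrium. With the cow as a replicate block 138 genes passed and 0 after adjustment, and CYB5R2 was then no longer among them. Among list members, LTF and CD247 passed. LTF, the iron-binding lactoferrin of neutrophil granules and secretions, stood at 7.66, 6.79, 7.01 and 7.33 against 6.62, 6.88, 6.85 and 6.79 in WBC, and at 10.37, 9.91, 8.52 and 9.82 against 13.10, 13.78, 13.51 and 9.46 in endometrium. The effect in WBC minus that in endometrium was -3.22 (SE 0.99). CD247 differed by -0.29 in WBC and 0.57 in endometrium. Without cow 846, whose LTF in endometrium was within the healthy range, LTF (-4.23, SE 0.50) and PI3, the protease inhibitor elafin (-4.81, SE 0.56), reached an adjusted limma TREAT p of 0.02 each. With all cows, and without any other cow, 0 genes passed after adjustment. Leaving out the SCE cow with the lowest LTF in endometrium widens the LTF difference by itself. These adjusted p-values are therefore not taken as evidence.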

How the data were processed

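Transcript levels of 8 blood and 8 endometrial samples were measured on single-colour Agilent bovine arrays. The authors deposited scanner files with the intensity of each spot (Agilent Feature Extraction 10.10.1.1, per the submitters' processing notes). Their table of normalized intensities served as an alternative. The authors' own comparison tables (fold changes and p-values) were not used, except to mark which genes they list. From the deposited intensity, the median signal of non-control spots was set to log2 and quantile-normalized over the 16 arrays, outlier-flagged spots were left out, spots of a probe and then probes of a gene name were averaged, and a gene was tested where all arrays of the fit held a value. Of 26554 names for 46615 probes, 14079 were named by symbol, 1816 by accession and 48 by an older symbol through the RefSeq gene table, and 10611 kept the array's name.

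Groups were fitted with limma 3.58.1 in R 4.3.3 (TREAT against a 1.2-fold threshold, Benjamini-Hochberg adjustment over all genes, 0.05). The scripts were tested on simulated data. Arrays are labelled as separate cows, each with 1 array per tissue. No cow was in both groups, so the blood comparison is unpaired. Across tissues the label ties both arrays to 1 animal, and the correlation of their deviations from the group means was 0.074 to 0.101 in healthy cows and -0.222 to 0.069 in SCE cows, so the interaction was also fitted with the cow as a block. Genes named are those with a symbol, an unadjusted call and no overlap, the largest rise and fall among members above background in each list, the first 3 markers of each cell type, and genes chosen after their values were seen (other calls, members without overlap, and those that passed with a cow left out). Members and lists were chosen with earlier results of these data known. A call without a given cow is an unadjusted TREAT p at or below 0.05. Where that cow lay nearest the other group or beyond it, its removal widens the difference by itself, and the call is not taken as evidence. A few genes are not reported here. Other settings are compared in the closing section.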

Additional observations from a re-analysis of the deposited data

Results flagged for a closer look

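Of 194 groups of 4 cows examined among the named genes, 10 had 1 cow far from the other 3 relative to the whole range of the group; chance flags about 1 in 20 groups. In SCE cows these were ID1 in cow 846 (11.26), BDH2 in cow 718 (9.06), TC411502 in cow 718 (7.09), DOCK3 in cow 836 (8.13), OSMR in cow 836 (5.68) and ITGB2 in cow 846 (12.50). In healthy cows they were SRR in cow 877 (7.55), NCF4 in cow 841 (12.39), SLC40A1 in cow 850 (10.50) and ARHGEF28 in cow 883 (5.49). All values are log2 normalized signals in WBC. SCE cow 833, whose array stood apart as a whole, was not among them.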

How the results depend on the processing

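The count of genes past the unadjusted TREAT test, 24, was 102 with the processed signal scaled to the 75th percentile, 407 with a threshold of 0, 119 with a threshold of 1.1-fold and 46 with each probe on its own, and 22 to 274 with each cow left out, among which 60 without healthy cow 850, 61 without SCE cow 718, 274 without cow 833 and 85 without cow 846. It was 19 to 33 in the other settings (quantile normalization over WBC alone, normexp background, the authors' values, the brightest probe, a filter on dim genes, a trended robust variance, slide row as a term, all 16 arrays in 1 fit). Adjusted counts were 0 in all of these. The calls themselves turned over more than the count: 10 of the 24 were among the 19 with all 16 arrays in 1 fit, and 6 to 21 of the 24 with each cow left out. The median of all genes lay between -0.017 and 0.006 in every setting. The count without overlap, 349, was 183 after the filter on dim genes, 575 over single probes and 713 to 1990 with each cow left out. The interaction count, 100, was 70 to 422 with each cow left out (208 without healthy cow 883, 309 without cow 833, 422 without cow 846), and 0 to 2 after adjustment. No paired analysis was possible for SCE against healthy because no cow is in both groups, and the interaction with the cow as a replicate block gave 138. Of 97 named genes, 83 kept their direction in every setting. The others differed from it on the brightest probe in STEAP3 (0.157), IRAK1 (-0.042), NQO1 (-0.042) and THBS1 (-0.151), and with the processed signal in OSMR (-0.094) and ARHGEF28 (-0.022). With each cow left out, HRH4 ranged from -0.405 to 0.204, GATA3 from -0.057 to 0.243, CST7 from -0.295 to 0.144, ACTA2 from -0.092 to 0.236, HK2 from -0.292 to 0.044, IDH3A from -0.123 to 0.234, STEAP3 from -0.149 to 0.090, MX2 from -0.335 to 0.070 and C5AR2 from -0.366 to 0.065. The causes were not tested. Signal close to background limits genes such as CAMK2A, CYB5R2, GP5, OSMR and ARHGEF28.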
